A study of Mus musculus with 6 samples.

Results

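A group of 10 nuclear genes that copy, package and transcribe mitochondrial DNA were followed in 6 mouse melanomas, 3 grown from vector control B16 cells and 3 from ATM knockout B16 cells. The genes were taken as the rows whose symbol equals Tfam, Polg, Polg2, Twnk, Ssbp1, Tfb2m, Polrmt, Top1mt, Mgme1 or Lonp1, which gave 10 of the 55536 gene rows, 1 for each symbol. B16 is a melanoma line of the C57BL/6 mouse, and ATM is a kinase activated by broken DNA. About 100000 cells were placed under the skin of C57BL/6J mice and the tumors were taken on day 13, per the labels. Control cells carried the vector and knockout cells the disrupted Atm gene, while the host cells in every tumor kept their own Atm. The sources used here do not give how Atm was disrupted, whether either line was a clone, the age of the mice, or whether any mouse gave more than 1 tumor. Each p-value here thus reflects how far these 6 tumors spread, which may in part be technical, and genotype cannot be told apart from the cell line that carries it.

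Mitochondria keep a small circular genome in many copies, wrapped by TFAM into nucleoids. A dedicated replisome copies it, made of the polymerase POLG with its accessory subunit POLG2, the helicase Twinkle (Twnk) and the single-stranded DNA binding protein SSBP1. The polymerase POLRMT transcribes it with TFAM and TFB2M and also makes the primers for replication. All of these proteins are encoded in the nucleus and imported. The title of the series speaks of leakage of mitochondrial DNA under ATM inhibition, and the question asked here is whether the genes that maintain and read that DNA differed between the groups.

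Counts on genes ran from 22101124 to 29037715 per library, and the filter on low counts kept 15696 genes, all 10 members among them. Levels are CPM, counts brought to a common library total, scaled by TMM, a correction for library composition, and given as mean ± SD. Atm itself was at 105 ± 8.09 CPM with the vector and 112 ± 17.99 CPM in the knockout (n = 3 per group), which does not check the labels, since a whole-gene count need not change when a gene is disrupted. The 8 melanocyte markers looked for were all present, with summed levels of 19606 to 28160 CPM with the vector and 19895 to 20123 CPM in the knockout. In the edgeR test given below, at an adjusted p of 0.05, 1 of these 8 markers was called between the groups, beside 4.96% of all tested genes. No tested marker of the other cell types looked for was called. Of 4 keratinocyte markers, 3 were at 0 in every library. The 4 endothelial markers summed to 137 to 235 CPM with the vector and 110 to 135 CPM in the knockout. These sums did not overlap, with the nearest tumors at 136.8 and 135.5 CPM. Of all tested genes, taken singly, 29.7% did not overlap in one direction or the other. The 6 fibroblast markers summed to 275 CPM in control tumor 1, to 2109 and 2991 CPM in the other control tumors and to 1318 to 1531 CPM in the knockout. The 8 leukocyte markers (211 to 484 and 330 to 434 CPM), the 4 erythroid (55.5 to 662 and 7.95 to 414 CPM) and the 4 adipocyte markers (0.0442 to 81.2 and 1.04 to 14.03 CPM) overlapped between the groups. The part of these cells in the results was not tested. Each value sums tumor and host cells, so fewer cells of a type and less RNA per cell cannot be told apart.

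The start regions of the members are shown first because a short sequence recurs in them. RefSeq (GRCm38.p6) gave promoter windows of 300 bases, 250 before and 50 after the start, for 9 of the 10 genes, Top1mt being the other, and 10 windows in all since Twnk has a pair of starts. The letters CCGGAAG, the core of sites bound by ETS factors such as GABPA (nuclear respiratory factor 2), were searched on both strands. They were in the windows of 6 of the 9 genes, and in 6 of the 10 member windows, against 8.86% of all 32851 windows of the same length. The windows were not matched for base composition, and a match is a description of letters, not of a bound site. The 30 bases around each match are printed 5′ to 3′ on the strand that reads CCGGAAG, which is in capitals.
Tfam: tcctgccgcggaCCGGAAGtccgggcttcc
Polg: ggaggacctcacCCGGAAGtccctctgcac
Ssbp1: gggctccgtgcgCCGGAAGcgagccgctgg
Polrmt: gttctgcgactgCCGGAAGcgctcttaggg
Polg2: tagaccacgcccCCGGAAGagcgtcacccg
Twnk, farther match: acaaccccggaaCCGGAAGtcaccggttag
Twnk, nearer match: ctcgcggtgactCCGGAAGcaaaactctcc

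The Tfam window is chr10:71238074-71238103 on the minus strand, that of Polg chr7:79466294-79466323 (minus) and that of Ssbp1 chr6:40471409-40471438 (plus). In these 3 genes the letters lie on the strand of the gene and begin 47, 38 and 47 bases before the RefSeq start. GENCODE M21, used for the gene positions below, starts these 3 genes farther upstream. By that annotation the printed windows lie inside the genes, so the place of the letters depends on the annotation. The Polrmt window is chr10:79746606-79746635 (plus), that of Polg2 chr11:106779548-106779577 (plus), and those of Twnk chr19:45006437-45006466 and chr19:45006481-45006510 (minus). Here the letters lie on the strand opposite to the gene, 43 bases before the start in Polrmt and 29 in Polg2. In Twnk they lie 110 and 66 bases before the downstream one of its RefSeq starts, inside the gene as GENCODE places it. The window of the upstream start of Twnk, where GENCODE also starts the gene, held no match. The core of the site of nuclear respiratory factor 1 (TGCGCA, its own reverse complement) was in the windows of Tfb2m, Polrmt and Lonp1, and in 7.76% of all windows. The YY1 core (ATGGCG, both strands) was in those of Tfb2m, Mgme1 and Lonp1, and in 8.93% of all windows.

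None of the 10 genes passed the edgeR quasi-likelihood test between the groups, at a Benjamini-Hochberg adjusted p of 0.05 over all genes tested, where 4.96% of all tested genes passed, 2.21% higher and 2.75% lower in knockout tumors. DESeq2 and limma-voom called none of them either, with 13.2% of all tested genes called by DESeq2. In edgeR 1 of the 10, Polrmt, had an unadjusted p below 0.05, as 23% of all tested genes did. Log2 fold changes (ATM knockout minus vector control) ran from -0.14 in Lonp1 to 0.24 in Polrmt, with a median of -0.03 beside -0.0058 over all tested genes, and 4 were positive and 6 negative. The 95% intervals of the 10 fold changes lay between -0.53 and 0.55 on the log2 scale, that is between 0.692-fold and 1.47-fold. All 10 intervals thus lay within 2-fold either way, as did 70.7% of those of all tested genes and 86.4% of those of genes whose mean CPM was within the members' range. Adjusted p-values over the edgeR fit ran from 0.174 to 0.913.

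**Figure D1:**
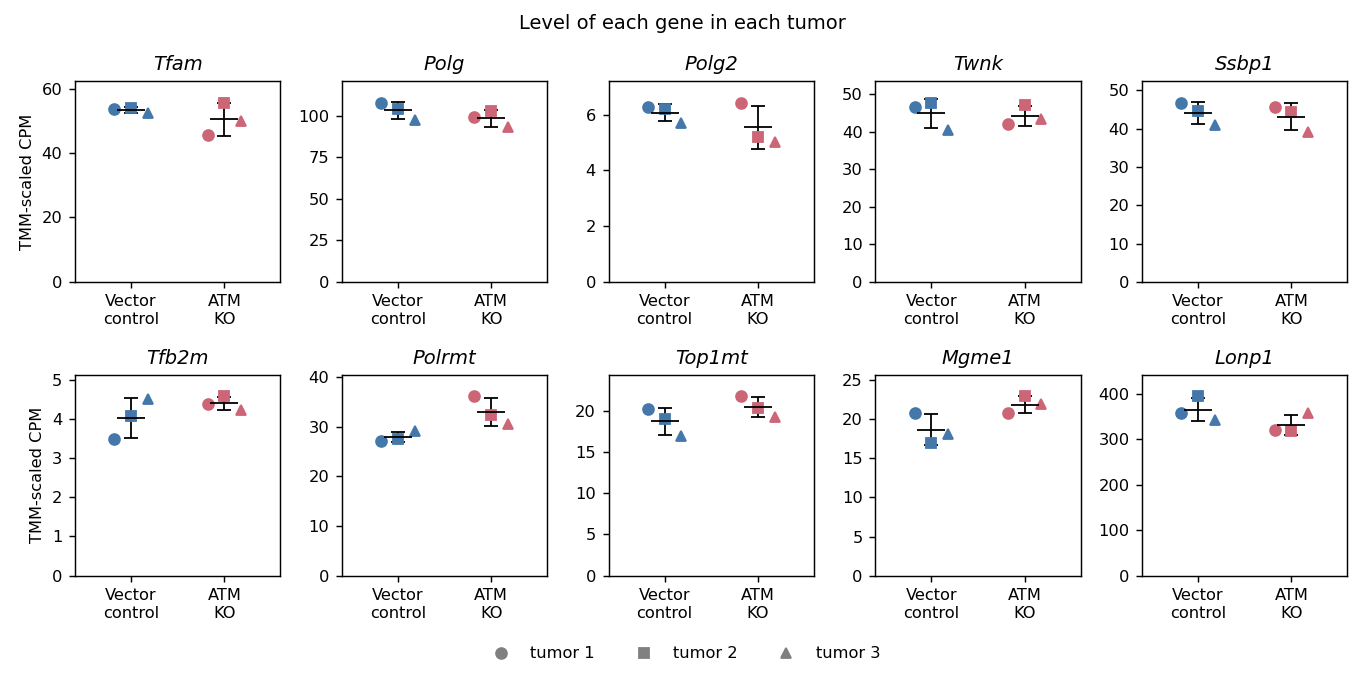
TMM-scaled CPM (y axis, from 0) of each gene in each tumor, with vector control in blue and ATM KO in red, symbols for tumors 1 to 3, and bars for mean ± SD of 3 tumors. Only Polrmt has groups that do not overlap, at 27.2 to 29.1 CPM with the vector and 30.6 to 36.2 CPM in the knockout.

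Tfam encodes the protein that coats and bends mitochondrial DNA and opens its promoters. Tfam stood at 53.5, 54.1 and 52.5 CPM in vector control tumors 1, 2 and 3 and at 45.5, 55.7 and 50.1 CPM in ATM knockout tumors 1, 2 and 3. The control tumors lay close together, and the knockout tumors spread to both sides of them. The log2 fold change was -0.08 ± 0.09 (SE, n = 3 per group), with a 95% interval of 0.819-fold to 1.09-fold (edgeR adjusted p = 0.643).

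Polrmt, the single-subunit mitochondrial RNA polymerase, was at 27.2, 27.6 and 29.1 CPM in control tumors and at 36.2, 32.3 and 30.6 CPM in knockout tumors. Every knockout tumor lay above every control tumor, which 29.7% of all tested genes showed in one direction or the other, 14.3% with the knockout tumors higher. The log2 fold change was 0.24 ± 0.09, with an interval of 1.02-fold to 1.37-fold (unadjusted p = 0.0332, edgeR adjusted p = 0.174), and lay between 0.17 and 0.30 when single tumors were left out. Tfb2m, which melts the promoter for the polymerase, had few counts, 79 to 109 in control and 107 to 128 in knockout libraries. Its levels were 3.49, 4.07 and 4.51 CPM and 4.39, 4.58 and 4.24 CPM. The groups overlapped, with the lowest value in control tumor 1. The interval was the widest upward of the 10 genes, 0.814-fold to 1.47-fold (log2 fold change 0.13 ± 0.18, edgeR adjusted p = 0.739).

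Polg, the catalytic subunit of the replicative polymerase, was at 108, 104 and 97.6 CPM in control tumors and at 99.5, 103 and 93.3 CPM in knockout tumors. It varied least of the 10 genes, the highest tumor being 1.16 times the lowest. The log2 fold change was -0.07 ± 0.07 (0.846-fold to 1.08-fold, edgeR adjusted p = 0.650). Polg2, the accessory subunit that keeps the polymerase on its template, was at 6.28, 6.22 and 5.71 CPM and at 6.44, 5.19 and 5.03 CPM. Knockout tumor 1 was the highest of the 6 and the other knockout tumors the lowest, so the groups overlapped. With 136 to 157 counts per library the interval was wide, 0.692-fold to 1.21-fold (log2 fold change -0.13 ± 0.17, edgeR adjusted p = 0.721). Of the exon bases of Polg, 8.57% are shared with Fanci on the other strand, and reads there could come from either gene. No source used here states whether counting used the strand. Reads set aside as ambiguous were 1.21% to 1.38% of those listed per library, so such reads may be missing from the count of Polg. Smaller parts of the exon bases of Mgme1 (6.15%), Top1mt (4.65%) and Polg2 (3.03%) are also shared with a gene on the other strand.

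Twnk, the helicase that unwinds mitochondrial DNA ahead of the polymerase, was at 46.5, 47.8 and 40.6 CPM in control tumors and at 42.0, 47.1 and 43.5 CPM in knockout tumors. All 3 knockout values lay inside the control range. The log2 fold change was -0.03 ± 0.09 (0.847-fold to 1.14-fold, edgeR adjusted p = 0.913), and 12.6% of the exon bases of Twnk are shared with Mrpl43 on the other strand. Ssbp1, which covers the displaced single strand, was at 46.8, 44.5 and 41.0 CPM and at 45.7, 44.4 and 39.0 CPM. The groups covered nearly the same range, with tumor 3 the lowest of each. Its log2 fold change was -0.03 ± 0.09 (0.840-fold to 1.13-fold, edgeR adjusted p = 0.875). Without TMM, scaled by library size alone, Twnk and Ssbp1 were at 0.02 each, where the median of all tested genes moved from -0.0058 to 0.04, so neither turned relative to that median.

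Mgme1, a nuclease that trims DNA ends left by replication, was at 20.8, 17.0 and 18.2 CPM in control tumors and at 20.8, 22.9 and 21.9 CPM in knockout tumors. Knockout tumors 2 and 3 lay above all control tumors, and knockout tumor 1 lay just below control tumor 1. The log2 fold change was 0.23 ± 0.11 (0.984-fold to 1.40-fold, edgeR adjusted p = 0.258). Top1mt, the mitochondrial type I topoisomerase, which relaxes supercoils in the circular genome, was at 20.2, 19.02 and 16.9 CPM and at 21.7, 20.3 and 19.3 CPM. The groups overlapped, and the log2 fold change was 0.13 ± 0.10 (0.921-fold to 1.297-fold, edgeR adjusted p = 0.528). Lonp1, the matrix protease that degrades TFAM not bound to DNA, was at 359, 394 and 343 CPM and at 319, 319 and 358 CPM. Knockout tumors 1 and 2 lay below all control tumors and knockout tumor 3 inside their range. The log2 fold change was -0.14 ± 0.09 (0.787-fold to 1.05-fold, edgeR adjusted p = 0.402), and -0.05 without control tumor 2.

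**Figure D2:**
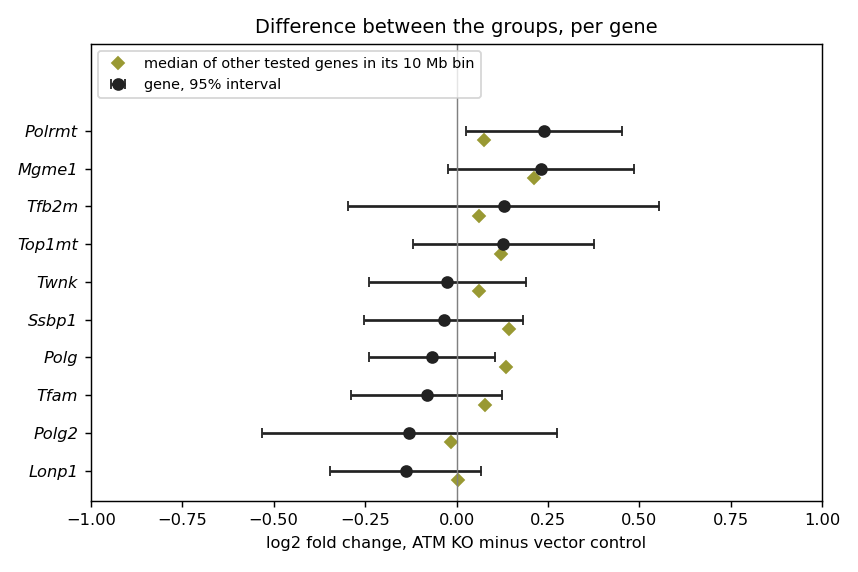
Log2 fold change of each gene (ATM KO minus vector control, x axis) as a point with its 95% interval from the edgeR fit, and the median of the other tested genes in the same 10 Mb stretch as a diamond. The intervals of 9 genes include 0, and that of Polrmt runs from 0.03 to 0.45.

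The genes are spread over 9 chromosomes. Medians of log2 fold change over the other tested genes of the same 10 Mb stretch lay between -0.01 for Polg2 (162 genes, chromosome 11) and 0.21 for Mgme1 (32 genes, chromosome 2, 140 to 150 Mb). In these stretches 73 of 162 and 23 of 32 genes had a positive fold change, beside 7710 of 15696 over all tested genes. The medians over the whole of chromosomes 11 and 2, the gene itself left out, were 0.0087 and 0.15. Mgme1 itself (chr2:144270663-144281227, GRCm38) differed from the median of its 10 Mb stretch by 0.02. Top1mt (chr15:75657035-75678800) differed from that of its own stretch by 0.0051, and these were the smallest differences of the 10. The largest were -0.20 in Polg (chr7:79446231-79466362) and -0.18 in Ssbp1 (chr6:40471352-40484700), both below their neighbors, followed by Polrmt, Tfam and Lonp1 (-0.14). Tfam (chr10:71225464-71238280) and Polrmt (chr10:79736123-79746581) lie in the same stretch of chromosome 10, whose median was 0.08 around each, the gene itself left out. Polrmt was 0.16 above and Tfam 0.16 below the median of its neighbors. Copy number was not measured, and these medians are given as local levels without a test.

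Per kb of merged exons, Lonp1 stood highest and Tfb2m and Polg2 lowest. Lonp1 was at 79.7 CPM per kb over the 6 tumors, 6.82 times the next gene, Tfam, at 11.7 CPM per kb. Tfam, Twnk (11.1), Top1mt (9.58) and Polg (9.40 CPM per kb) followed each other with overlapping ranges. Polrmt (6.51), Mgme1 (6.06) and Ssbp1 (5.21 CPM per kb) formed a lower run, again with overlapping neighbors. Tfb2m (1.503) and Polg2 (1.33 CPM per kb) overlapped at the low end, and Ssbp1 was 3.47 times Tfb2m. This order depends on the length used, and merged exons include retained introns. Per kb of the principal transcript of the annotation, an alternative chosen after seeing the data, Polg2 was at 3.86 CPM per kb and stood above Tfb2m (1.72). Ssbp1 then stood at 9.91 CPM per kb, above Polrmt (8.12), with ranges that overlap. Lonp1 stayed highest, at 118 CPM per kb and 9.17 times the next gene, Polg.

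**Figure D3:**
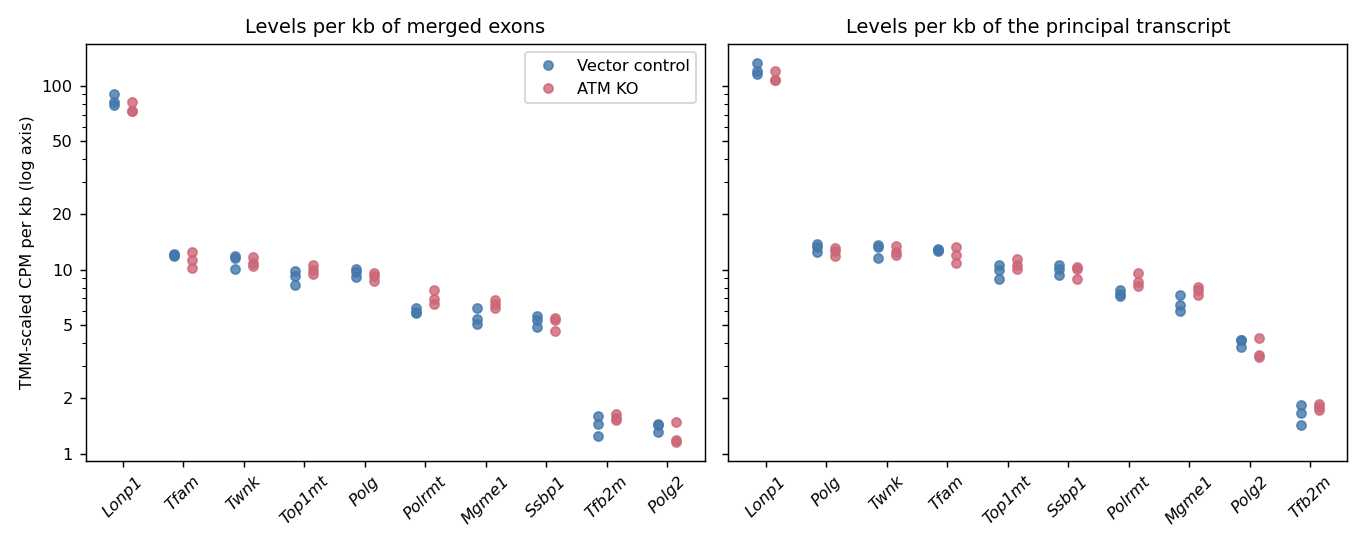
TMM-scaled CPM per kb (log axis) of each gene in the 6 tumors, vector control in blue and ATM KO in red, per kb of merged exons on the left and of the principal transcript on the right, genes ordered by mean. Lonp1 is highest in both, and Polg2 and Tfb2m are the lowest pair in both, in opposite order.

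Ratios between genes whose products act together were chosen after their values were seen and are given without a test. Per kb of the principal transcript, Polg was 2.97 to 3.82 times Polg2 over the 6 tumors, and 6.27 to 8.06 times per kb of merged exons. The same ratio for Polrmt over Tfb2m was 4.21 to 5.38 and for Tfam over Twnk 0.908 to 1.08, both with overlapping groups. Lonp1 over Tfam, 8.08 to 10.3, overlapped between the groups too. Tfam over Polrmt was 1.77, 1.76 and 1.62 in control tumors 1, 2 and 3 and 1.13, 1.55 and 1.47 in knockout tumors 1, 2 and 3. This was the 1 ratio of 5 without overlap, and it contains Polrmt, whose own groups do not overlap.

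The variation of the members over all 6 tumors was below that of most genes. The SD of log2 CPM was 0.0758 in Polg, smaller than in all but 5.38% of tested genes, and at the other end 0.166 in Mgme1, with 34.8% of tested genes lower, and the median over all tested genes was 0.226. The ratio of highest to lowest tumor had a median of 1.26 over the members, 1.51 over all tested genes and 1.37 over genes in the same range of mean CPM. The genes whose centred log2 CPM over the 6 tumors came closest to the mean profile of the 10 members were Pole3, Ipo8 and Exosc10, with root mean square differences of 0.0143, 0.0144 and 0.0151 log2 units among 9916 genes with at least 10 CPM. The member profile itself ranged only from -0.06 in control tumor 3 to 0.04 in knockout tumor 2, so these are genes with little variation.

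Of 84 tested genes in 6 further lists of mitochondrial genome biology, 1 rose and 1 fell in edgeR, 2.38% against 4.96% of all tested genes. Hsd17b10, a subunit of the mitochondrial RNase P that cuts transfer RNAs out of the long mitochondrial transcripts, rose. It was at 24.2, 23.6 and 23.8 CPM in control tumors and at 37.4, 39.6 and 36.1 CPM in knockout tumors, a wide gap between groups that each varied little (log2 fold change 0.66 ± 0.07, edgeR adjusted p = 0.0130). The gene lies on the X chromosome (chrX:152001845-152004442), in a 10 Mb stretch where the median over 50 other tested genes was 0.55. Primpol, a primase that can restart stalled mitochondrial replication, fell from 26.6, 25.7 and 27.4 CPM to 18.9, 19.8 and 19.6 CPM (log2 fold change -0.45 ± 0.08, edgeR adjusted p = 0.0336). It lies on chromosome 8 (chr8:46575594-46617212), in a stretch with a median of -0.25 over 44 other tested genes, and 17.3% of its exon bases are shared with Cenpu or Gm45607 on the other strand. The call of Hsd17b10 ended without control tumor 2 or 3 or knockout tumor 1 or 2 (adjusted p = 0.0521 to 0.0954), and that of Primpol without any single tumor except control tumor 1 (0.0751 to 0.153) and without a filter on low counts (0.0543).

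**Figure D4:**
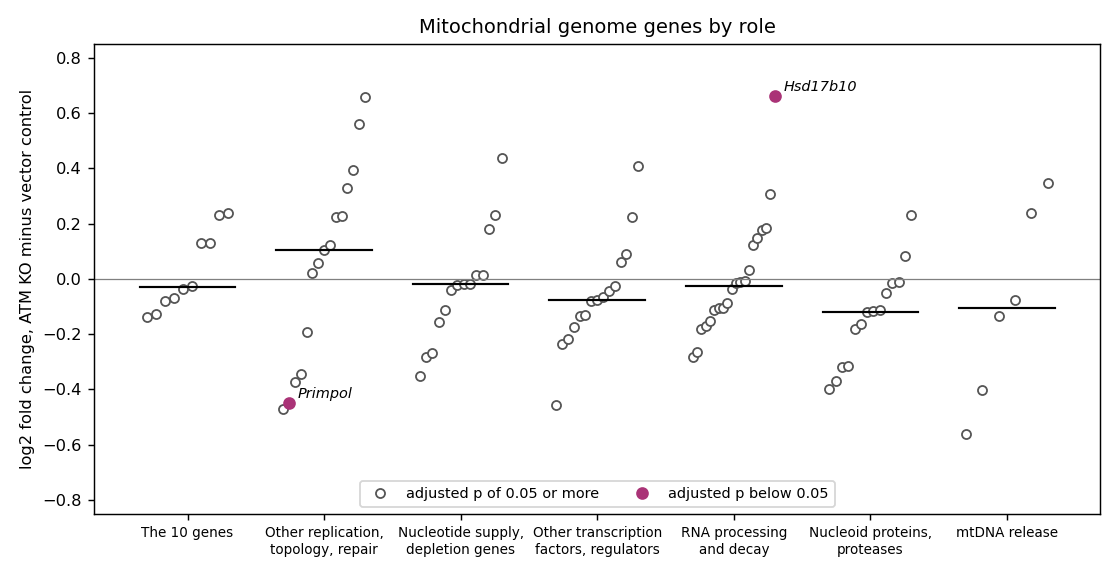
Log2 fold change (ATM KO minus vector control, y axis) of every tested gene by role, with lines at the list medians and filled points for an edgeR adjusted p below 0.05. The filled points are Primpol at -0.45 and Hsd17b10 at 0.66.

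Counts of p below 0.05 before adjustment and of DESeq2 calls stand beside 23% and 13.2% of all tested genes, and signs beside 7710 of 15696 positive. By role, 1 of 15 tested genes of replication, topology and repair outside the members passed, Primpol, and the list median was 0.10 (DESeq2 called 1 higher and 2 lower, and before adjustment 4 higher and 3 lower had p below 0.05 in edgeR). In RNA processing and decay 1 of 20 passed, Hsd17b10, with a median of -0.03 and 1 call by DESeq2. None of 14 genes of nucleotide supply and mitochondrial DNA depletion passed in edgeR (median -0.02). Before adjustment 2 were lower at p below 0.05, and DESeq2 called 1 lower. The smallest p-values there belonged to Sucla2, a subunit of succinyl-CoA ligase (87.7 ± 5.25 CPM with the vector and 68.6 ± 6.95 CPM in the knockout, an order kept for the genes that follow), and Tk2, mitochondrial thymidine kinase (22.5 ± 1.23 and 18.5 ± 1.24 CPM, n = 3 per group). Sucla2 on chromosome 14 and Tk2 on chromosome 8 had log2 fold changes of -0.35 and -0.28, beside medians of -0.38 and -0.29 in their 10 Mb stretches.

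None of 15 transcription factors and nuclear regulators passed in edgeR or DESeq2 (median -0.08), and before adjustment edgeR had 1 higher and 2 lower at p below 0.05. Ppargc1b, a coactivator of mitochondrial biogenesis, was at 11.4 ± 0.690 and 15.1 ± 2.38 CPM (log2 fold change 0.41, edgeR adjusted p = 0.161), and Nrf1, which encodes nuclear respiratory factor 1, at 51.5 ± 2.48 and 45.6 ± 0.529 CPM (-0.17, edgeR adjusted p = 0.173). None of 14 nucleoid proteins and mitochondrial proteases passed in edgeR, with a median of -0.12, 2 of 14 above 0 (7710 of 15696 over all tested genes), 5 lower at p below 0.05 before adjustment (23% of all tested genes in either direction), and 4 calls by DESeq2, all lower (13.2%). Hspa9, the matrix chaperone mortalin, was at 701 ± 46.9 and 531 ± 41.2 CPM (log2 fold change -0.40, edgeR adjusted p = 0.0584), and Atad3a, a membrane ATPase linked to nucleoids, at 84.0 ± 5.55 and 67.4 ± 5.28 CPM (-0.32, edgeR adjusted p = 0.0885).

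Among genes tied to release of mitochondrial DNA, none of 6 tested passed in edgeR (median -0.11), with 2 higher and 2 lower at p below 0.05 before adjustment, while DESeq2 called 1 higher and 2 lower (over all tested genes 23% and 13.2%). Bak1, which forms pores in the outer membrane, was at 182, 178 and 195 CPM in control tumors and at 257, 225 and 223 CPM in knockout tumors. The groups did not overlap (log2 fold change 0.35 ± 0.08, edgeR adjusted p = 0.0678). Vdac2, an outer membrane channel that holds BAK at the membrane, was at 368, 312 and 293 CPM and at 236, 239 and 261 CPM. These groups did not overlap either, in the other direction, as 29.7% of all tested genes did not in one direction or the other (-0.40 ± 0.10, edgeR adjusted p = 0.0775), and the medians of the 10 Mb stretches around Bak1 and Vdac2 were 0.18 and -0.28.

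Of the RNA made from the mitochondrial genome, a sum was taken over the 7 mitochondrially encoded mRNAs with at least 10 counts in every library (mt-Nd1, mt-Nd2, mt-Co1, mt-Nd4, mt-Nd5, mt-Nd6 and mt-Cytb), which summed to 20272.8, 14117.5 and 17157.7 CPM in control tumors and to 20281.7, 21746.5 and 18493.3 CPM in knockout tumors. The groups overlapped through control tumor 1, and the log2 difference was 0.24 (two-sided exact permutation test, p = 0.2). With 3 against 3 the smallest p is 0.1, so this test could not reach 0.05. The log2 difference was 0.11 without control tumor 2 and 0.37 without control tumor 1. The ribosomal RNAs mt-Rnr1 (1003 ± 185 CPM in control and 984 ± 54.9 CPM in knockout, n = 3 per group) and mt-Rnr2 (1309 ± 290 and 1370 ± 141 CPM) had log2 fold changes of -0.03 and 0.07 (edgeR adjusted p = 0.942 and 0.871). The sum leaves out 6 mRNAs, of which mt-Co3 had 1 count in 1 library and the other 5 (mt-Nd4l, mt-Nd3, mt-Atp6, mt-Atp8, mt-Co2) are listed at 0 throughout. Multiply aligned reads are also listed at 0, so such counts need not mean absent RNA, and their cause was not tested. Skeletal muscle, a tissue rich in mitochondria, also differed between tumors. Its 12 markers, none of them at 0 over the series, summed to 30.8, 71.5 and 7649 CPM in control tumors and to 2713, 7427 and 663 CPM in knockout tumors, so that control tumors 1 and 2 were the lowest of the 6. Its part in the levels of mitochondrial genes was not tested.

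**Figure D5:**
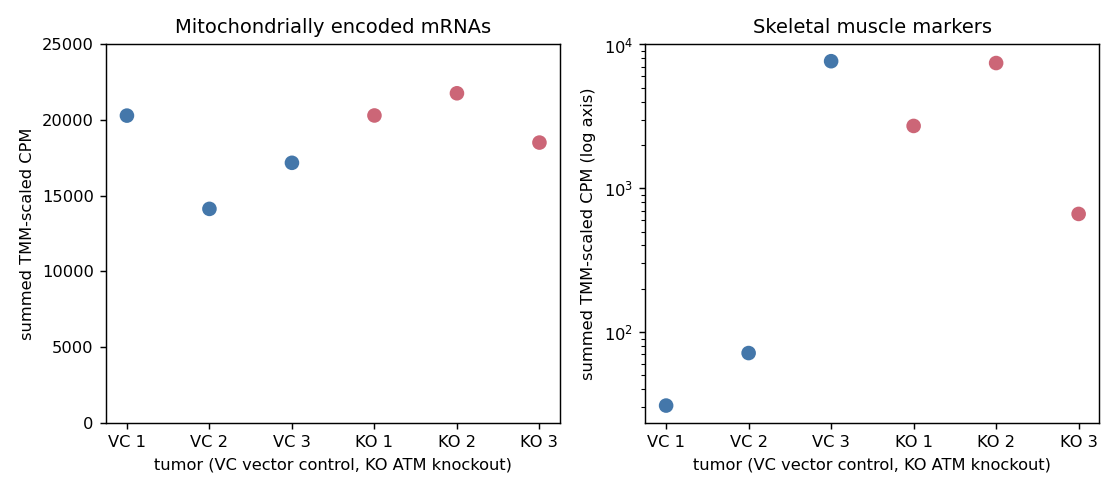
Summed TMM-scaled CPM of 7 mitochondrially encoded mRNAs (left, from 0) and of 12 skeletal muscle markers (right, log axis) in each tumor, vector control in blue and ATM KO in red. The mRNAs stay between 14117.5 and 21746.5 CPM, while the muscle markers run from 30.8 to 7649 CPM.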

How the data were processed

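RNA sequencing libraries of 6 tumors were used, 1 file per library. The authors deposited raw counts per gene, which were not normalized. Per the submitters' processing notes the tools were HTSeq, STAR, SAMtools, cutadapt and Trim Galore (versions not given) and the builds GRCm38 and mm10. All 55536 gene identifiers matched GENCODE M21, which gave positions and lengths. Rows naming no gene were left out; reads outside genes were 16.7% to 18.2% of those listed. Multiply aligned reads are listed at 0, so a gene with a close copy may be undercounted. A check for libraries deposited more than once found none: within each group the lowest chi-square per degree of freedom between a pair was 21.2.

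With edgeR 4.0.16, genes were kept by filterByExpr (count of at least 10, total of at least 15), scaled by TMM and tested with the robust quasi-likelihood F test, with genotype as the only term and Benjamini-Hochberg adjustment over 15696 genes at 0.05. The common biological coefficient of variation was 27.6%. Intervals use the standard error and degrees of freedom of that fit. Precision is limited by the counts of each gene and by 3 tumors per group.

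Alternatives were median-ratio or library-size scaling, other filters, DESeq2 1.42.0, limma-voom (3.58.1), non-robust dispersions, a replicate block, each tumor left out, and another transcript length. The members and lists were chosen with earlier results of these data known. Text names all members and, per further list, every called gene or, where none was called, the 2 of smallest p.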

Additional observations from a re-analysis of the deposited data

How the results depend on the processing

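No member was called, in either direction, under any of 14 alternatives. Some of these called few genes or none, such as 0 higher and 0 lower with a replicate block. Without knockout tumor 1 there were 0 higher and 2 lower. In such settings a count of 0 members says little. The lowest adjusted p of a member was 0.109, for Mgme1 without control tumor 1, and unadjusted p-values lay below 0.05 for 0 to 2 members. Over all genes such p-values numbered from 2472 of 16091 without knockout tumor 1 to 4168 of 16116 without control tumor 1. Of 140 fold changes of members, 131 kept their direction and 9, all of Ssbp1 and Twnk, changed sign. In 3 of the 9, with library size alone or at least 1 CPM in 3 libraries, the median of all genes moved too, from -0.0058 to 0.04 and 0.02, and the member stayed below it. Without control tumor 2 the median moved to 0.023, and Ssbp1, at 0.0028, stayed below it as well. Ssbp1 was 0.016 with library size alone and -0.080 to 0.037 with single tumors left out. Twnk was 0.024 with library size alone, 0.0052 with at least 1 CPM in 3 libraries, and -0.082 to 0.051 with single tumors left out. For the 6 changes with a tumor left out the cause was not tested. With single tumors left out, Tfam lay between -0.16 and -0.01, Polg between -0.10 and -0.02, Polg2 between -0.25 and -0.06, Tfb2m between 0.04 and 0.23, Top1mt between 0.07 and 0.19, Mgme1 between 0.19 and 0.32 and Lonp1 between -0.19 and -0.05.

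Over all genes, 347 were higher and 431 lower. DESeq2 gave 920 and 1150. Leaving out single tumors gave 0 to 587 and 2 to 622, with fewest without knockout tumor 1. In the further lists DESeq2 called 3 higher and 9 lower, leaving out single tumors gave 0 to 2 higher and 0 to 1 lower, and without a filter 0 were lower. With the replicate number as a block edgeR called 0 genes higher and 0 lower, 0 in the lists, while 3004 genes and 0 members had an unadjusted p below 0.05. The numbers are not stated to pair tumors, and deviations of same-numbered tumors correlated at 0.04, -0.27 and -0.42. Taken from means of only 3 tumors, these values cannot decide whether same-numbered tumors share more than a number. Tfb2m and Polg2, at 79 to 157 counts per library, had the widest intervals.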

Other observations

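Several of the named genes of the further lists lie on chromosomes or in stretches where many genes differed the same way. Around Hsd17b10, between 150 and 160 Mb of the X chromosome, 16 of 50 other tested genes were called higher and 0 lower in edgeR, and 40 had a positive fold change. The median over all 505 other tested genes of the X chromosome, that stretch included, was -0.07. Around Sucla2 on chromosome 14, between 70 and 80 Mb, 21 of 63 were called lower, and around Vdac2, between 20 and 30 Mb of the same chromosome, 8 of 61. The shift was not particular to these stretches, whose medians were -0.38 and -0.28, since the median over 532 other tested genes of chromosome 14 was -0.35. Around Tk2 on chromosome 8, between 100 and 110 Mb, 13 of 94 were called lower, and around Primpol 5 of 44 were called lower and 1 higher. The median over 825 other tested genes of chromosome 8 was -0.26, beside -0.29 and -0.25 in these stretches. Hspa9 and Atad3a differed by -0.40 and -0.32 in stretches with medians of 0.05 and 0.0050. None of the 10 genes of mitochondrial DNA maintenance lies in a stretch with more than 4 called neighbors, but these stretches hold from 32 to 162 other tested genes. Around Mgme1 2 of 32 and around Ssbp1 3 of 57 were called, all higher, and around Lonp1 0 of 64, beside 4.96% of all tested genes. Copy number was not measured, and no cause was tested.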
